A study of Homo sapiens with 8 samples.

Results

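The genes described here are 10 components of the machinery that drives human cells through G1: the D-type cyclins CCND1, CCND2 and CCND3, their kinases CDK4 and CDK6, the E-type cyclins CCNE1 and CCNE2, their kinase CDK2, and the inhibitors CDKN1A (p21) and CDKN1B (p27). They were chosen by Ensembl ID, 10 of the 60666 gene IDs in a table of read counts, and each symbol was assigned together with its ID. RNA recovered with a biotinylated microRNA duplex was sequenced 48 h after its transfection into 786-0 cells, an established line of human clear cell renal carcinoma. The libraries came from duplexes of miR-2355-5p (2 libraries), miR-1271-5p (3 libraries) and a control microRNA whose sequence the labels do not give (3 libraries), all in the same line. The design text names triplicates, but 2 miR-2355 libraries were analysed here, so all miR-2355 values rest on n = 2. Groups are called miR-2355, miR-1271 and control below. Whether the replicates were separate cultures is not stated in the labels, and p-values therefore rest on the spread among these libraries alone, part of which may be technical. No RNA from before the pulldown was analysed here, so a value is a share of the recovered RNA. More of a transcript in the cells and better recovery of it cannot be told apart.

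In G1, mitogens induce D-type cyclins, which activate CDK4 and CDK6 to begin phosphorylating the retinoblastoma protein. Cyclin E with CDK2 completes that step and releases E2F transcription factors, and cells enter S phase. CDKN1A and CDKN1B bind these complexes and inhibit CDK2, while they also help D-type cyclins to assemble with their kinases. In clear cell renal carcinoma, CCND1 is known as a gene activated through HIF after loss of VHL. MicroRNAs recognise mRNAs mainly through their seed, the bases 2 to 8 from the 5′ end, and a pulldown with a biotinylated microRNA is meant to enrich the mRNAs it binds.

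The mature sequences of both transfected microRNAs are shown because their seeds define which sites each could pair with. RefSeq (GRCh38.p14) places miR-2355-5p on the minus strand at chr2:207110043-207110063 and miR-1271-5p on the plus strand at chr5:176367960-176367981. The seed is in capitals, 5′ to 3′.
hsa-miR-2355-5p: aUCCCCAGauacaauggacaa
hsa-miR-1271-5p: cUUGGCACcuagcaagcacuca
hsa-miR-96-5p: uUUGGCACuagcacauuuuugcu
Among 2370 mature microRNAs in the RefSeq table, miR-2355-5p shared its seed with no other, and miR-1271-5p shared its seed with miR-96-5p alone (minus strand, chr7:129774739-129774761), which was not transfected and is shown for that reason. A perfect seed match would read CUGGGGA in a target of miR-2355-5p and GUGCCAA in a target of miR-1271-5p. The transcripts of the G1 genes were not searched for these matches, since no transcript sequences were used here.

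The libraries held 14924700 to 18637410 counted reads with miR-2355, 10358878 to 13119672 with miR-1271 and 4122875 to 22864693 with the control, where control replicate 2 was the shallowest of all. Levels are CPM, the reads of a gene scaled to a common library size, with TMM factors that correct for library composition. CCND2 had 0 reads in all 8 libraries, which allows at most 0.131 to 0.728 CPM at 3 reads per library (counting error only). The other 9 genes had 1725 reads (CCNE1) to 84151 reads (CDK6) over the 8 libraries, and all 9 were among the 17351 genes tested. Levels are not compared between genes, because transcript lengths were not used. The labelled cell type was not checked against marker genes, since the count table gives IDs alone.

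With miR-2355, CDK6 and CDKN1B rose, and with miR-1271, CDK2 and CDKN1A rose. None of the tested G1 genes was called lower with either microRNA against the control. The log2 fold change was negative but not past the threshold for 1 gene with miR-2355 and for 3 with miR-1271. Thus 2 of 9 genes were called with each microRNA (edgeR quasi-likelihood test, Benjamini-Hochberg adjusted p under 0.05 over all tested genes). Among all tested genes, 12.3% of genes were higher and 17.5% lower with miR-2355 (29.8% in either direction), and 17.6% higher and 22.5% lower with miR-1271 (40.2% in either direction). Counting both directions, the share of G1 genes called was thus no larger than that of all genes. All calls were rises, and for rises alone 2 of 9 was above the 12.3% and 17.6% of all genes. Among the 8136 genes in the same range of read counts, 18.9% were higher with miR-2355 and 25.4% with miR-1271. Beside these genes, 2 of 9 was above the share for miR-2355 and below that for miR-1271, so an excess of rises is not shown. At an unadjusted p under 0.05, 3 G1 genes were higher and 0 lower with miR-2355, where 18% of all tested genes were higher and 22.4% lower. With miR-1271, 2 were higher and 0 lower at that level, where 22.3% of all tested genes were higher and 26% lower. DESeq2 also called 0 lower with either microRNA. With miR-2355 the median log2 fold change was 0.13 over the 9 genes and 0.00 over all tested genes, and with miR-1271 it was 0.03 over the 9 genes and 0.01 over all.

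**Figure D1:**
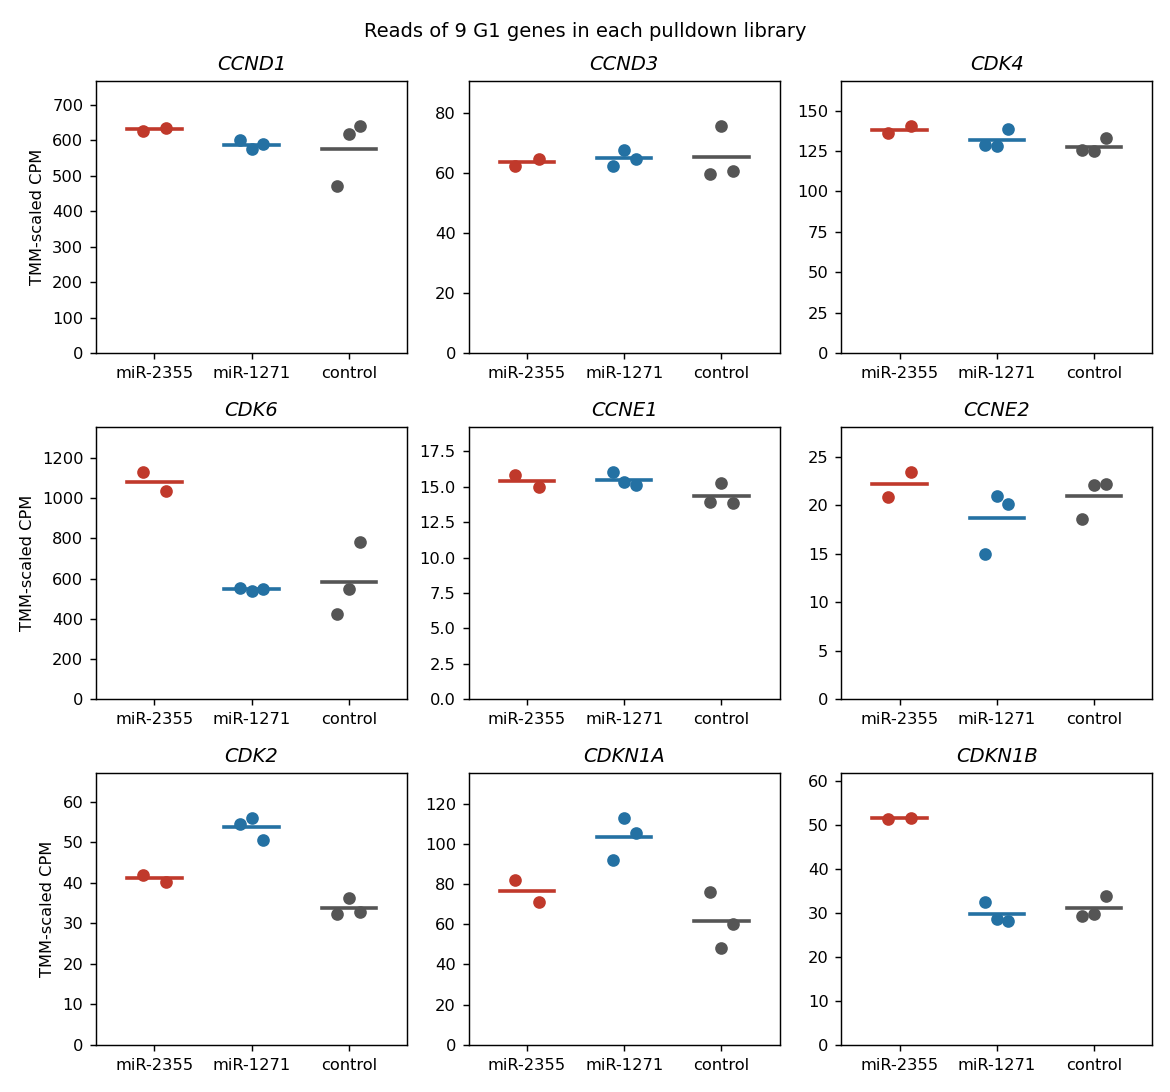
TMM-scaled CPM (y axis, linear, from 0) of 9 G1 genes in each library of the miR-2355, miR-1271 and control pulldowns. Points are libraries and bars are group means. CDK6 and CDKN1B are highest in both miR-2355 libraries, CDK2 and CDKN1A in all 3 miR-1271 libraries, and the other 5 genes did not pass the test in any contrast.

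CCND1 (ENSG00000110092) encodes cyclin D1 and lies at chr11:69641156-69654474 (GRCh38.p14). It stood at 627 and 636 CPM with miR-2355, at 601, 575 and 589 CPM with miR-1271, and at 473, 618 and 640 CPM in the controls. Control replicate 1 was the lowest library, and both microRNA groups lay inside the range of the controls. The log2 fold change was 0.13 ± 0.15 (SE) with miR-2355, with a 95% interval of -0.19 to 0.45 (edgeR adjusted p = 0.555). With miR-1271 it was 0.03 ± 0.14, with an interval of -0.26 to 0.32 (edgeR adjusted p = 0.881).

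CCND3, the cyclin D3 gene (ENSG00000112576, chr6:41934933-42050035), overlapped in all groups. It had 62.4 and 64.8 CPM with miR-2355, 62.2, 67.7 and 64.7 CPM with miR-1271, and 59.8, 75.5 and 60.6 CPM in the controls. The highest value was that of the shallow control replicate 2, and the other libraries lay between 59.8 and 67.7 CPM. Its log2 fold changes were -0.02 ± 0.13 (SE) with miR-2355 and 0.00 ± 0.12 with miR-1271, with 95% intervals of -0.30 to 0.25 and -0.24 to 0.25 (edgeR adjusted p = 0.914 and 0.979). CCND2 (ENSG00000118971, chr12:4273762-4305353), the third D-type cyclin gene, had no read in any group, so no comparison was made.

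CDK6 (ENSG00000105810), a kinase partner of the D-type cyclins at chr7:92604921-92836573, showed the largest change among the G1 genes. It had 1129 and 1036 CPM with miR-2355, 555, 539 and 549 CPM with miR-1271, and 421, 548 and 783 CPM in the controls. Both miR-2355 libraries were above all others, the miR-1271 libraries lay close together, and the controls were widely spread, with the highest 1.86 times the lowest. The means were 1082 ± 65.7 CPM with miR-2355 (SD, n = 2), 548 ± 8.02 with miR-1271 (SD, n = 3) and 584 ± 183 in the controls (SD, n = 3). Against the control this was a 1.85-fold rise with miR-2355, or 0.89 ± 0.20 on the log2 scale (SE; edgeR adjusted p = 0.00263). With miR-1271 the log2 fold change was -0.09 ± 0.18, with a 95% interval of -0.47 to 0.28 (edgeR adjusted p = 0.71).

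The size of the CDK6 rise depended on which control libraries were used. The log2 fold change was 1.16 without control replicate 3, the highest control, and 0.70 without control replicate 1, the lowest. It passed the threshold in both cases. In RefSeq, 3 further genes overlap the span of CDK6, among them CDK6-AS1. The strand setting of the counting is not given in the sources used here. Whether exons of these genes overlap those of CDK6, so that reads could be shared, was not checked.

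CDK4, the other D-cyclin kinase (ENSG00000135446, chr12:57747727-57752310), did not pass the test with either microRNA. It had 136 and 140 CPM with miR-2355, 129, 128 and 139 CPM with miR-1271, and 125, 125 and 133 CPM in the controls. The miR-2355 libraries were both above the controls, but by little. The log2 fold change was 0.11 ± 0.12 (SE) with miR-2355, with a 95% interval of -0.14 to 0.36 (edgeR adjusted p = 0.51), and 0.04 ± 0.11 with miR-1271, with an interval of -0.18 to 0.27 (edgeR adjusted p = 0.77). TSPAN31 and MIR6759 overlap the span of CDK4 in RefSeq, and overlap of exons was not checked.

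The E-type cyclin genes did not pass the test with either microRNA. CCNE1 (ENSG00000105173, chr19:29811991-29824312), which encodes cyclin E1, had 15.9 and 15.0 CPM with miR-2355, 16.0, 15.3 and 15.1 CPM with miR-1271, and 13.9, 15.3 and 13.9 CPM in the controls. The groups overlapped, and its log2 fold changes of 0.12 ± 0.15 (SE) with miR-2355 and 0.12 ± 0.14 with miR-1271 did not pass (edgeR adjusted p = 0.593 and 0.503). CCNE2 (ENSG00000175305, chr8:94880224-94896693), which encodes cyclin E2, had 20.9 and 23.4 CPM with miR-2355, 15.0, 21.0 and 20.1 CPM with miR-1271, and 18.6, 22.1 and 22.1 CPM in the controls. The lowest value was that of miR-1271 replicate 1, at 145 reads. Against the control, miR-2355 gave a log2 fold change of 0.09 ± 0.16 (SE) and miR-1271 one of -0.15 ± 0.15 (edgeR adjusted p = 0.72 and 0.457).

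CDK2, the partner kinase of cyclin E (ENSG00000123374, chr12:55966830-55972789), was highest with miR-1271. It had 42.0 and 40.1 CPM with miR-2355, 54.4, 55.9 and 50.6 CPM with miR-1271, and 32.3, 36.3 and 32.7 CPM in the controls. The groups did not overlap: every miR-1271 library was above every miR-2355 library, and those were above every control. With miR-1271 it averaged 53.6 ± 2.77 CPM (SD, n = 3) against 33.8 ± 2.17 in the controls (SD, n = 3), a 1.60-fold rise, or 0.68 ± 0.11 on the log2 scale (SE; edgeR adjusted p = 0.000178). With miR-2355 the mean was 41.0 ± 1.34 CPM (SD, n = 2) and the log2 fold change 0.29 ± 0.12, which did not pass (edgeR adjusted p = 0.0864, and 0.0278 with upper-quartile scaling).

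CDKN1A (ENSG00000124762) encodes p21, an inhibitor of cyclin-dependent kinases induced by p53, and lies at chr6:36676463-36687332. It had 82.1 and 71.2 CPM with miR-2355, 92.0, 112.9 and 105.2 CPM with miR-1271, and 76.2, 48.1 and 60.3 CPM in the controls. All miR-1271 libraries were above all others, while the miR-2355 and control libraries overlapped. The mean was 103 ± 10.6 CPM with miR-1271 (SD, n = 3) against 61.6 ± 14.1 in the controls (SD, n = 3), a 1.66-fold rise, or 0.73 ± 0.15 on the log2 scale (SE; edgeR adjusted p = 0.000929). With miR-2355 the log2 fold change was 0.30 ± 0.16 (edgeR adjusted p = 0.183). It passed for miR-2355 only without control replicate 1, the highest control, at 0.48 (edgeR adjusted p = 0.0212). In RefSeq, DINOL overlaps the span of CDKN1A, and overlap of exons was not checked.

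CDKN1B (ENSG00000111276) encodes p27, the inhibitor that holds CDK2 in check in resting cells, and lies at chr12:12717368-12722369. It had 51.4 and 51.6 CPM with miR-2355, 32.5, 28.6 and 28.2 CPM with miR-1271, and 29.4, 29.9 and 33.9 CPM in the controls. Both miR-2355 libraries were well above the other 6, among which the groups overlapped. The means were 51.5 ± 0.13 CPM with miR-2355 (SD, n = 2), 29.8 ± 2.36 with miR-1271 (SD, n = 3) and 31.1 ± 2.47 in the controls (SD, n = 3). This was a 1.65-fold rise with miR-2355, or 0.72 ± 0.13 on the log2 scale (SE; edgeR adjusted p = 0.000452). With miR-1271 the log2 fold change was -0.07 ± 0.12, with a 95% interval of -0.32 to 0.19 (edgeR adjusted p = 0.683). In RefSeq, no other gene overlaps the spans of CDKN1B, CDK2, CCND1 and CCNE1. INTS8, NDUFAF6 and LOC100128548 overlap that of CCNE2, and LOC105375059 and RNU6-761P that of CCND3.

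**Figure D2:**
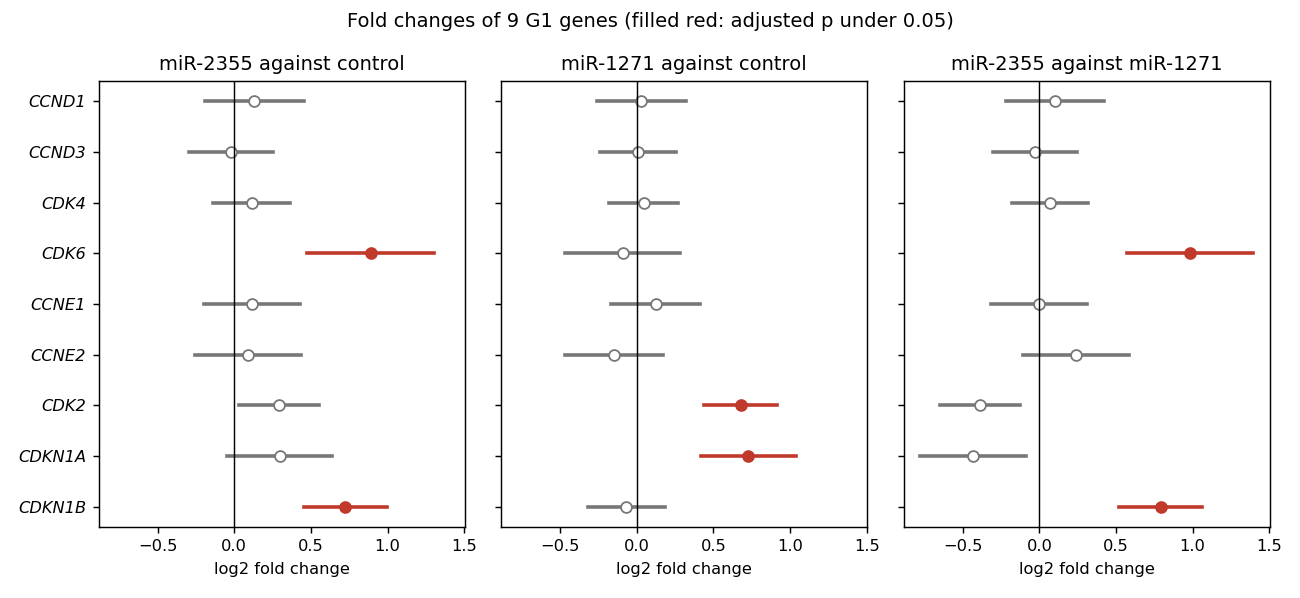
Log2 fold changes (x axis) of 9 G1 genes (rows) in the 3 contrasts, with lines for approximate 95% intervals from the edgeR fit, and filled red points where the adjusted p was under 0.05. The genes past the threshold are CDK6 and CDKN1B with miR-2355 against the control, CDK2 and CDKN1A with miR-1271 against the control, and CDK6 and CDKN1B in the direct contrast.

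The direct contrast of both pulldowns tests whether levels differ between them. Of the 9 genes, CDK6 and CDKN1B were higher with miR-2355 than with miR-1271, and 0 were lower at the adjusted threshold. Over all tested genes 3.5% were higher and 2.65% lower (6.15% in either direction). At an unadjusted p under 0.05, 2 G1 genes were higher and 2 lower, where 11.3% of all tested genes were higher and 11.5% lower. CDK6 differed by a log2 value of 0.98 ± 0.20 (SE), a 1.98-fold difference (edgeR adjusted p = 0.00793), and CDKN1B by 0.79 ± 0.13, a 1.73-fold difference (edgeR adjusted p = 0.00192). Without miR-2355 replicate 1, where the lone remaining library is taken to vary as the other groups do, CDK6 stood at 0.93 and just missed the threshold (edgeR adjusted p = 0.0501).

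CDK2 and CDKN1A were lower with miR-2355 than with miR-1271 in every library, but the difference did not pass. The log2 difference was -0.39 ± 0.12 (SE) for CDK2 and -0.43 ± 0.16 for CDKN1A (edgeR adjusted p = 0.0732 and 0.124, unadjusted p = 0.00635 and 0.0176). Both passed in a fit of the microRNA groups alone (edgeR adjusted p = 0.044 for CDK2 and 0.0323 for CDKN1A) and without control replicate 1 (0.0486 and 0.0467), with nearly the same sizes. The rise of these genes with miR-1271 is therefore not shown to differ from their change with miR-2355. The remaining 5 genes differed by log2 values between -0.03 (CCND3) and 0.24 (CCNE2), none past the threshold, and DESeq2 likewise called 0 genes lower.

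The counts of G1 genes were also set beside those of genes in the same range of read counts. The 8136 genes whose mean log2 CPM lay between those of CCNE1 and CDK6 were called in 40.7% of cases with miR-2355 against the control, in 52.8% with miR-1271 against the control and in 8.98% in the direct contrast. The median size of the log2 fold change, regardless of sign, was 0.13 with miR-2355 over the 9 G1 genes and 0.33 over those 8136 genes. With miR-1271 it was 0.09 over the G1 genes and 0.37 over the 8136. In the direct contrast it was 0.24 over the G1 genes and 0.20 over the 8136. Groups did not overlap for 4 of the 9 genes with miR-2355 against the control (CDK4, CDK6, CDK2 and CDKN1B, all above), where 24.9% of all tested genes lay above without overlap and 27.8% below (52.7% in either direction). With miR-1271 against the control this held for 2 genes, CDK2 and CDKN1A, both above, where 23.1% of all tested genes lay above and 26.8% below (49.9%). In the direct contrast it held for 5 genes, of which CCND1, CDK6 and CDKN1B lay above and CDK2 and CDKN1A below, where 21.1% of all tested genes lay above and 20.5% below (41.5%).

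Ratios of raw reads between G1 genes within a library do not depend on how libraries are scaled. The ratio of CDK6 to CDK4 reads was 8.28 and 7.39 in the miR-2355 libraries, 4.32, 4.21 and 3.96 in the miR-1271 libraries, and 3.36, 4.38 and 5.90 in the controls. Both miR-2355 libraries were above all others, so CDK6 moved relative to the other D-cyclin kinase as well as relative to the library. The ratio of CDK6 to CCND1 reads was 1.80 and 1.63 in the miR-2355 libraries, 0.923, 0.937 and 0.932 in the miR-1271 libraries, and 0.891, 0.886 and 1.22 in the controls, again without overlap between miR-2355 and the others.

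The ratio of CDK2 to CDK4 reads was 0.308 and 0.286 in the miR-2355 libraries, 0.423, 0.437 and 0.365 in the miR-1271 libraries, and 0.258, 0.290 and 0.246 in the controls. All miR-1271 libraries were above all others, while miR-2355 and control libraries overlapped. The ratio of CDKN1B to CDKN1A reads was 0.627 and 0.725 in the miR-2355 libraries, 0.353, 0.254 and 0.268 in the miR-1271 libraries, and 0.386, 0.621 and 0.562 in the controls. Thus the inhibitor pair stood furthest toward CDKN1B with miR-2355 and furthest toward CDKN1A with miR-1271, although control replicate 2 came close to the miR-2355 libraries. No test was run on these ratios.

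**Figure D3:**
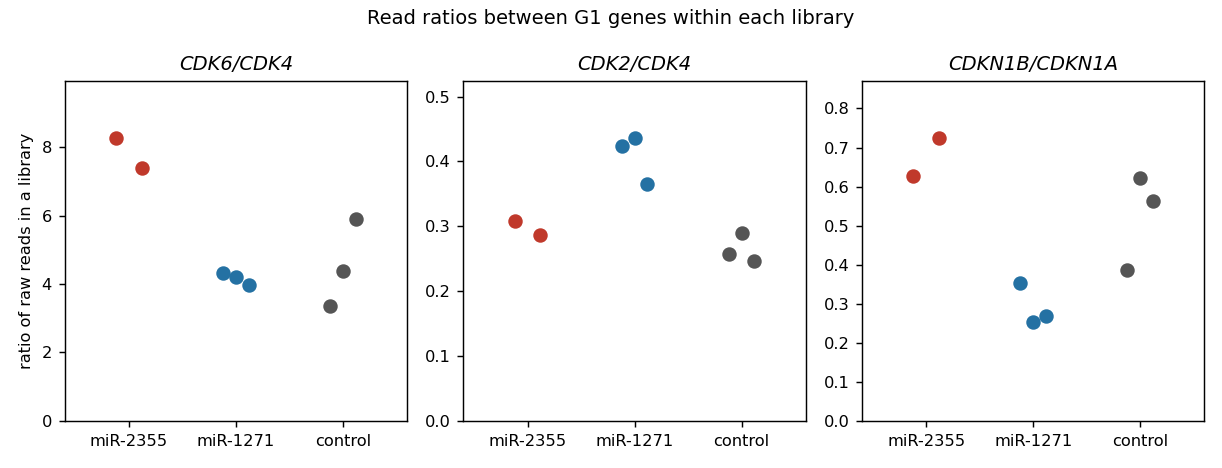
Ratios of raw reads between 2 G1 genes in the same library (y axis, linear, from 0) for the miR-2355, miR-1271 and control pulldowns, with 1 point per library. CDK6 over CDK4 is highest in both miR-2355 libraries, CDK2 over CDK4 in all 3 miR-1271 libraries, and CDKN1B over CDKN1A is lowest in the miR-1271 libraries.

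CDK6 accounted for much of the reads of the set. The 10 genes together took 0.217% ± 0.0003 of all reads with miR-2355 (SD, n = 2), 0.146% ± 0.0040 with miR-1271 (SD, n = 3) and 0.158% ± 0.028 in the controls (SD, n = 3). CDK6 made up 50.97% ± 1.60 of these reads with miR-2355, 35.3% ± 0.37 with miR-1271 and 37.9% ± 5.39 in the controls (SD, same n). Without CDK6 the shares were 0.107% ± 0.0033, 0.0945% ± 0.0025 and 0.0972% ± 0.010 in the same order. They lay closer together than with CDK6, but miR-2355 was still the highest. All of these are shares of library totals, without TMM factors.

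The genes with the most similar pattern were sought for CDKN1B, CDK2 and CDK6, the G1 genes with the lowest p-values, by Pearson's r of log2 CPM across genes over the 8 libraries. These r values describe group differences and library spread together, since all genes share the libraries. CDK6 and CDKN1B were both called higher with miR-2355, and CDK2 and CDKN1A with miR-1271. A high r within these pairs therefore adds no separate evidence. For CDKN1B the nearest of all tested genes was ENSG00000223959 (r = 0.99), and CDK6 was its nearest G1 gene (r = 0.93). Conversely CDKN1B was the nearest G1 gene to CDK6, and 0.144% of the tested genes were more alike to CDK6 than CDKN1B was. For CDK2 the nearest gene was ENSG00000136699 (r = 0.99), and the nearest G1 gene was CDKN1A (r = 0.80), which 8.93% of tested genes exceeded. The count table does not pair these IDs with names.

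**Figure D4:**
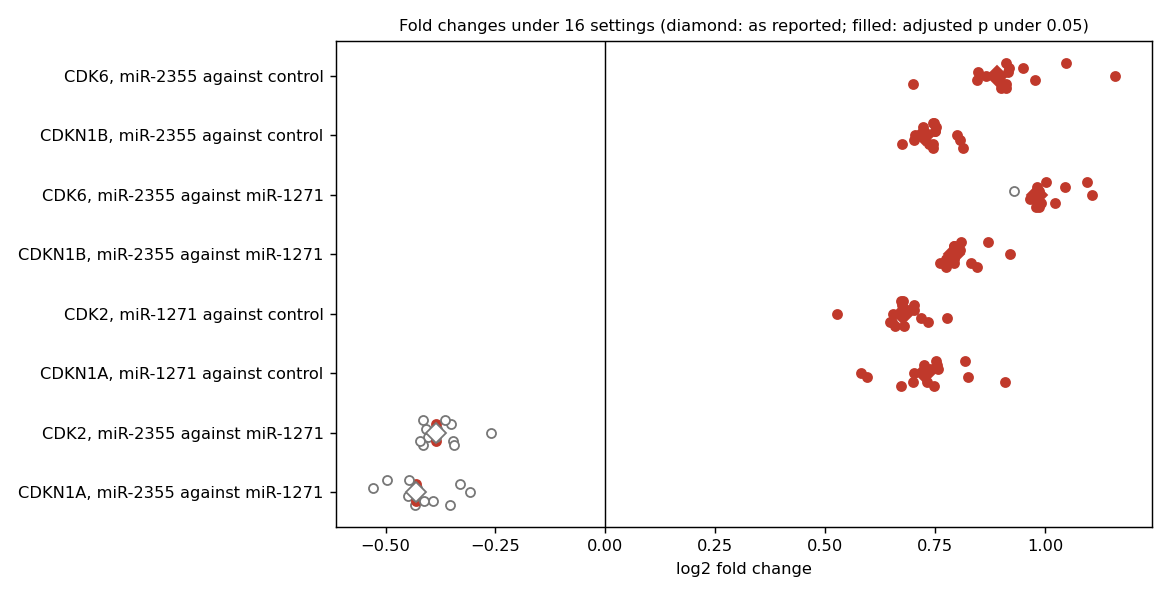
Log2 fold changes (x axis) of CDK6, CDKN1B, CDK2 and CDKN1A in the contrasts named on the rows, under 16 settings: as reported (diamond) and 15 alternatives (circles), filled red where the adjusted p was under 0.05. The rises against the control keep their direction and stay past the threshold throughout, CDK6 misses it in the direct contrast without miR-2355 replicate 1, and CDK2 and CDKN1A pass it there under 2 alternatives only.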

How the data were processed

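The authors deposited unnormalized read counts, 1 row per Ensembl gene ID and 1 column per library. Per the submitters' processing notes, BWA and featureCounts were used with the builds hg38 and GRCh38; the sources used here give no versions, annotation release, strand setting or rule for multi-mapping reads. BWA makes no spliced alignments, so junction reads can be lost.

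From these counts, edgeR 4.0.16 in R 4.3.3 kept 17351 genes (filterByExpr), scaled libraries by TMM and fitted quasi-likelihood group means to all 8 libraries; glmQLFTest gave 3 contrasts, adjusted by Benjamini-Hochberg over all tested genes. Standard errors are the log2 fold change over the root of its F statistic, and intervals use the fit's degrees of freedom; both are approximate. Simulated counts, drawn with dispersions fitted to these data, served only to check that the code returned median fold changes near those set. They do not test the calls reported here. Replicates differed by more than sampling noise (chi-square per degree of freedom of 6.21 to 21.9). All 8 libraries were kept, and this value was not used to judge their quality. All 10 G1 genes are named. The genes, lists and tests were chosen with earlier results of these data known. A list of 64 other G1/S genes by symbol, the marker genes and a seed-match search were not used: 0 IDs matched the RefSeq table's Ensembl column, and no transcripts were given. Loci and microRNA sequences are RefSeq's (GRCh38.p14), matched by symbol or name for all 10 genes. Alternatives used DESeq2 1.42.0, other scalings, filters and fits, equal depth and leaving out each library.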

Additional observations from a re-analysis of the deposited data

Results flagged for a closer look

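CDK6 and CDKN1B differed between the 2 microRNA pulldowns. The log2 fold change of miR-2355 over miR-1271 was 0.98 for CDK6 and 0.79 for CDKN1B. The direct contrast passed the threshold for both (edgeR adjusted p = 0.00793 and 0.00192). Both miR-2355 libraries were above all 3 miR-1271 libraries for each gene, as they were for 21.1% of all tested genes. Over the 15 alternatives the difference ran from 0.93 to 1.11 for CDK6 and from 0.76 to 0.92 for CDKN1B. Groups of 2 or 3 libraries are too small to search for single outlying libraries.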

How the results depend on the processing

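The 15 alternatives gave 405 log2 fold changes for the 9 tested genes in 3 contrasts. Of these, 398 stayed on their side of the threshold, 1 lost it (CDK6 in the direct contrast without miR-2355 replicate 1, at 0.93), 6 gained it, and 0 calls turned direction. The gains were CDK2 with upper-quartile factors (0.37) and CDKN1A without control replicate 1 (0.48) for miR-2355 against the control, and CDK2 and CDKN1A in the direct contrast in the fit of its 2 groups alone and without control replicate 1. Genes lower in the direct contrast thus numbered 0 as reported and 2 with only the 2 groups of the contrast, and 0 to 2 on leaving out 1 library; genes higher there numbered 1 to 2. Log2 fold changes over all alternatives were 0.70 to 1.16 for CDK6 and 0.67 to 0.81 for CDKN1B (miR-2355 against control), and 0.53 to 0.78 for CDK2 and 0.58 to 0.91 for CDKN1A (miR-1271 against control). The same-numbered libraries of different groups did not deviate together (correlations of -0.10 to 0.02), so the numbers were not taken to pair them; with the replicate block 2 G1 genes were called higher and 0 lower in each contrast, as without it, while all genes called in the direct contrast numbered 320 higher and 217 lower against 608 and 459. These totals were 970 and 902 in the fit of 2 groups, 930 and 641 with no low-count filter, 360 and 309 at equal depth, 1252 and 261 with library totals alone, and 154 to 915 and 70 to 785 on leaving out 1 library. Leaving out miR-2355 replicate 1 gave 760 higher and 1569 lower genes for miR-2355 against the control, where 2127 and 3044 were reported. Library totals shifted the median over all genes to -0.14 on the log2 scale for miR-1271 against the control (1896 genes higher, 3062 as reported) and to 0.12 in the direct contrast, and upper-quartile factors moved it to 0.10 for miR-1271. Higher genes made up 41.1% of calls for miR-2355 as reported and 52.0% with upper-quartile factors. For miR-1271 they made up 43.9%, 54.6% under upper-quartile and 27.95% under library-total scaling, and in the direct contrast 57.0% and 82.7% with library totals. The cause of these changes was not tested. The planned fits on the list of other G1/S genes were not run, because its symbols could not be matched. Depth limits what can be said of CCND2, which had 0 reads in every library.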

Other observations

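The control libraries spanned a wider range than either group of microRNA libraries in 7 of the 9 genes, although only 2 libraries make up the miR-2355 group. For CDKN1B this was a near tie, at 1.153 times in the controls and 1.152 times with miR-1271. The controls also include the shallowest library, replicate 2 at 4122875 reads, and its part in the spread was not tested. Replicate 2 was the middle control for CDK6 and CCND1, the lowest for CDKN1A and the highest for CCND3. The highest control exceeded the lowest by 1.86 times for CDK6, 1.58 times for CDKN1A, 1.35 times for CCND1 and 1.26 times for CCND3, where the miR-1271 libraries spanned 1.03, 1.23, 1.05 and 1.09 times and the miR-2355 libraries 1.09, 1.15, 1.02 and 1.04 times. Control replicate 1 was the lowest of the controls for CDK6 and CCND1 and the highest for CDKN1A.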
